A study of Mus musculus with 8 samples.

Results

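The genes described here are 10 transcription factor genes of the cardiac fibroblast lineage and of epithelial-to-mesenchymal transition (EMT): Tcf21, Tbx20, Tbx18, Gata4, Gata6, Meox1, Scx, Twist1, Snai1 and Snai2. They were picked by gene symbol, 10 of 34399 symbols in the count tables, and all 10 had counts in every library and passed the filter on low counts. RNA had been sequenced from GFP-positive fibroblasts sorted from mouse heart ventricles 4 weeks after transverse aortic constriction (TAC), a narrowing of the aorta that loads the heart with pressure. The 8 libraries formed 4 groups of 2. Smad2/3 DKO (double knockout) libraries HK15 and HK16 came from Smad2 flox/flox, Smad3 flox/flox mice whose MerCreMer, a Cre that needs tamoxifen to act, sat in the Postn locus. Their Postn-Cre controls, HK3 and HK4, had the same driver. Tgfbr1/2 DKO libraries HK2 and HK4 came from mice with floxed alleles of both TGF-beta receptor genes and MerCreMer in the Tcf21 locus, and Tcf21-Cre controls HK6 and HK7 had that driver too. All groups, controls included, carried Cre, a Cre-dependent eGFP reporter in the Rosa locus, and the TAC injury, in mice operated on at 8 to 10 weeks of age. All received tamoxifen by injection at 100 mg/kg for 2 days and then in chow at 40 mg/kg. The Postn driver marks cells that have switched on Postn, a gene of activated fibroblasts, and the Tcf21 driver marks cells that have expressed Tcf21, a gene of resident fibroblasts.

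Cardiac fibroblasts arise largely from the epicardium, the outer layer of the heart, through an EMT in which epithelial cells loosen their junctions and move into the muscle wall. Tcf21, a basic helix-loop-helix (bHLH) factor, is needed for this fibroblast lineage in mice, and Tbx18 is a T-box factor of the epicardium. Tbx20, Gata4 and Gata6 are cardiac factors known from heart muscle that fibroblasts also express. Meox1 is a homeobox factor first known from somites, and Scx is a bHLH factor of tendon cells that drives collagen genes. Twist1, a bHLH factor, and the zinc finger repressors Snai1 (Snail) and Snai2 (Slug) drive EMT, and TGF-beta, which signals through its receptors to Smad2 and Smad3, is a known inducer of them.

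Each comparison was sequenced in a run of its own, so the run changes between the comparisons along with the driver and the floxed genes. Total counts were between 21477646 and 32594474 per library, so that 3 counts correspond to 0.092 to 0.14 CPM, counts scaled to a library total of 1000000. Nothing in the labels ties a library to 1 animal or to a pool, so each p reflects the spread among these libraries only, which may be technical. The floxed genes were not lower beyond it: the log2 fold change was -0.19 ± 0.19 for Smad2 (SE, edgeR adjusted p = 0.747) and -0.26 ± 0.23 for Smad3 (adjusted p = 0.702). It was -0.24 ± 0.19 for Tgfbr1 (adjusted p = 0.533) and 0.25 ± 0.20 for Tgfbr2 (adjusted p = 0.535). A deleted exon may leave the count of the gene as it was, and the name DKO follows the labels. The 12 fibroblast markers summed to 20455 to 20919 CPM in Smad2/3 DKO and 25549 to 29437 CPM in Postn-Cre control libraries, and to 40713 to 41127 CPM in Tgfbr1/2 DKO and 43756 to 53255 CPM in Tcf21-Cre control libraries. The most abundant of them were Dcn, a matrix proteoglycan, at 8965 to 15430 CPM over the 8 libraries, and Col3a1, a fibrillar collagen, at 1067 to 7961 CPM. In the Smad2/3 comparison Col3a1 was at 1067 and 1147 CPM in DKO and 5130 and 4307 CPM in control libraries. Dcn was at 10390 and 10290 CPM in DKO and 10470 and 8965 CPM in control libraries. There edgeR called 3 of the 12 as lower, the collagen genes Col3a1, Col1a2 and Col1a1, and DESeq2 called 6. The edgeR fit called 1.29% of all tested genes. In the Tgfbr1/2 comparison 0 of the 12 passed.

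Levels set across genes need a scale per length, here CPM per kilobase of exonic sequence (GENCODE vM21, with the authors' own gene models not stated in the labels or headers). On that scale Tbx20 and Meox1 were the most abundant in Smad2/3 DKO libraries, at means of 85.4 and 78.6 CPM per kilobase, and their libraries overlapped. In Postn-Cre controls the same genes led without overlap, Tbx20 at 54.6 and Meox1 at 33.4 CPM per kilobase. Meox1 led in the Tcf21-driven groups, at 181 CPM per kilobase in Tgfbr1/2 DKO and 179 in Tcf21-Cre control libraries. There Tcf21 followed at 53.1 CPM per kilobase in Tgfbr1/2 DKO libraries, above Tbx20 at 43.6. In Tcf21-Cre controls Tbx20 at 61.2 and Tcf21 at 58.3 CPM per kilobase overlapped. Gata4 ranked 3 in the Postn-driven groups, where it overlapped its lower neighbour (Tcf21 in Smad2/3 DKO and Snai2 in control libraries), and 4 in the Tcf21-driven groups. Its mean was 17.0 in Smad2/3 DKO, 22.1 in Postn-Cre control, 26.5 in Tgfbr1/2 DKO and 35.2 CPM per kilobase in Tcf21-Cre control libraries. Scx was the lowest in Smad2/3 DKO libraries at 0.604 CPM per kilobase, in Tgfbr1/2 DKO libraries at 3.08 and in Tcf21-Cre controls at 3.29, where it overlapped Twist1. In Postn-Cre controls Snai1 was lowest at 1.01 and overlapped Scx at 1.55 CPM per kilobase.

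**Figure D1:**
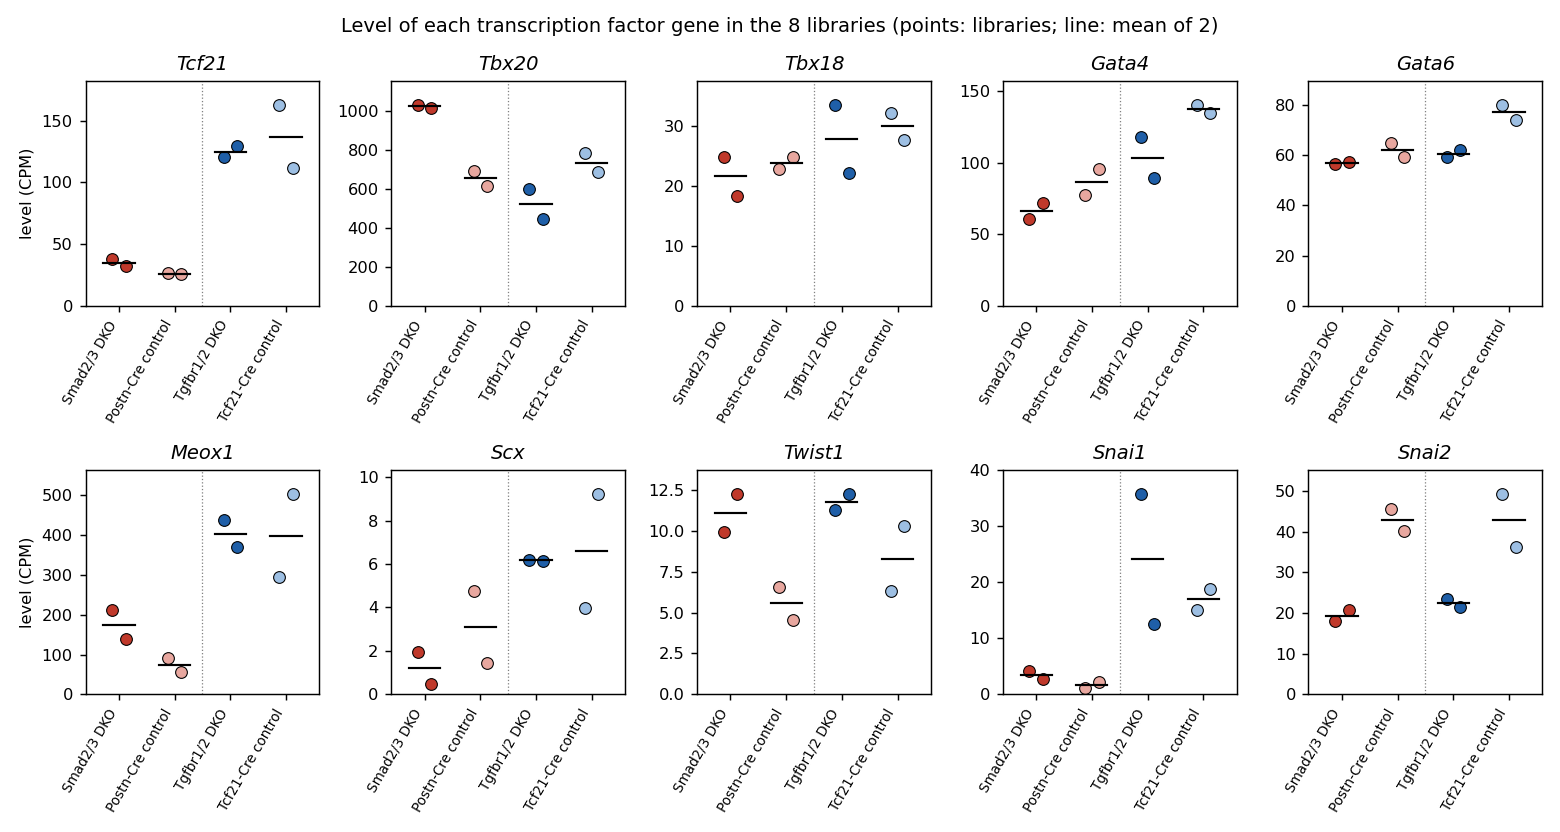
Level of each of the 10 genes in CPM (linear axes from 0, a scale of its own for each gene) in the 8 libraries, with 2 points per group and a line at their mean; the dotted line separates the sequencing runs. Snai2 was lower in both DKO groups than in their own controls, while Tcf21, Meox1 and Snai1 were lower in both Postn-Cre-driven groups than in the Tcf21-Cre-driven groups.

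The first comparison asks what loss of Smad2 and Smad3, which carry the TGF-beta signal to the nucleus, did in cells sorted by the Postn driver. None of the 10 genes passed the threshold of an adjusted p of 0.05, in a fit that called 1.29% of 15760 tested genes. The closest were Snai2, 2.31-fold lower in the Smad2/3 DKO libraries, and Meox1 and Tbx20, which were higher in the Smad2/3 DKO libraries. At an unadjusted p under 0.05 there were 4 of the 10 (Snai2, Meox1, Tbx20 and Twist1), against 13.6% of all tested genes. DESeq2, the other tool run, called Snai2, Meox1 and Tbx20, 3 of the 10, and 4.83% of the genes it tested. The libraries of the groups did not overlap for 8 of the 10 genes, 5 of them higher and 3 lower in Smad2/3 DKO libraries, while 44.4% of all tested genes did not overlap. The median log2 fold change was 0.09 over the 10 genes and 0.01 over all tested genes.

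Among the lineage factors, Tcf21 (chromosome 10, 22817281 to 22820174, minus strand, mm10) was at 37.7 and 32.0 CPM in Smad2/3 DKO libraries, against 26.2 and 25.6 CPM in Postn-Cre controls. The groups did not overlap, and the log2 fold change was 0.37 ± 0.25 (SE, n = 2 per group, adjusted p = 0.589). Tbx18 (chromosome 9, 87702800 to 87731260, minus strand) was at 24.8 and 18.4 CPM in Smad2/3 DKO libraries and at 22.9 and 24.8 CPM in controls, with overlap (-0.20 ± 0.29, adjusted p = 0.839). On the opposite strand D030062O11Rik shares 970 exonic bases with Tbx18, and since no strand-marking step is described, reads of the pair cannot be told apart.

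Of the cardiac factors, Tbx20 (chromosome 9, 24718138 to 24774303, minus strand) had 1032 and 1018 CPM in Smad2/3 DKO libraries and 693 and 616 CPM in Postn-Cre controls. Both Smad2/3 DKO libraries lay above both controls, with a log2 fold change of 0.59 ± 0.14 (adjusted p = 0.0820). Gata4 (chromosome 14, 63198922 to 63271692, minus strand) was at 60.5 and 72.0 CPM in Smad2/3 DKO libraries, against 77.1 and 95.6 CPM in controls (-0.44 ± 0.20, adjusted p = 0.386). Gata6 was at 56.7 and 57.3 CPM in Smad2/3 DKO libraries, against 65.0 and 59.5 CPM in controls (-0.18 ± 0.20, adjusted p = 0.772). Both GATA genes were lower in the Smad2/3 DKO libraries without overlap, but neither passed the test.

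Meox1 (chromosome 11, 101877510 to 101894374, minus strand) was at 212 and 138 CPM in Smad2/3 DKO libraries and at 92.0 and 56.9 CPM in Postn-Cre controls. The groups did not overlap, and the fold change was 2.25, or 1.17 ± 0.26 on the log2 scale (adjusted p = 0.0625). The log2 fold change of Meox1 was 1.58 without control HK3 and 1.44 without Smad2/3 DKO HK16. It was smaller, at 0.84 without Smad2/3 DKO HK15 and 0.86 without control HK4. Scx (chromosome 15, 76457452 to 76459458, plus strand), which lies inside Bop1 on the opposite strand without shared exonic bases, had 1.96 and 0.466 CPM in Smad2/3 DKO libraries and 4.77 and 1.44 CPM in controls. These rest on 50 and 10 counts in Smad2/3 DKO libraries and on 124 and 33 in controls, and the groups overlapped (-1.42 ± 0.89, adjusted p = 0.546). With each library left out in turn, the Scx value ranged from -2.78 to -0.28.

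Among the EMT factors, Snai2 (chromosome 16, 14705852 to 14709385, plus strand) had 18.1 and 20.6 CPM in Smad2/3 DKO libraries, against 45.7 and 40.1 CPM in Postn-Cre controls. Both Smad2/3 DKO libraries were below both controls, with a log2 fold change of -1.20 ± 0.26 and an adjusted p of 0.0507, just outside the threshold. Without control HK4 the adjusted p was 0.0413, and without any other 1 library it was 0.1 to 0.253. Snai1 (chromosome 2, 167538195 to 167542814, plus strand) stood the other way, at 4.11 and 2.70 CPM in Smad2/3 DKO libraries and 1.15 and 2.13 CPM in controls (1.00 ± 0.69, adjusted p = 0.592). It rests on 105 and 58 counts in Smad2/3 DKO libraries and 30 and 49 in controls. Twist1 (chromosome 12, 33957671 to 33959829, plus strand) was at 9.91 and 12.2 CPM in Smad2/3 DKO libraries and at 6.58 and 4.57 CPM in controls (0.93 ± 0.42, adjusted p = 0.364). Neither Snai1 nor Twist1 overlapped between the groups, and neither passed the test.

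**Figure D2:**
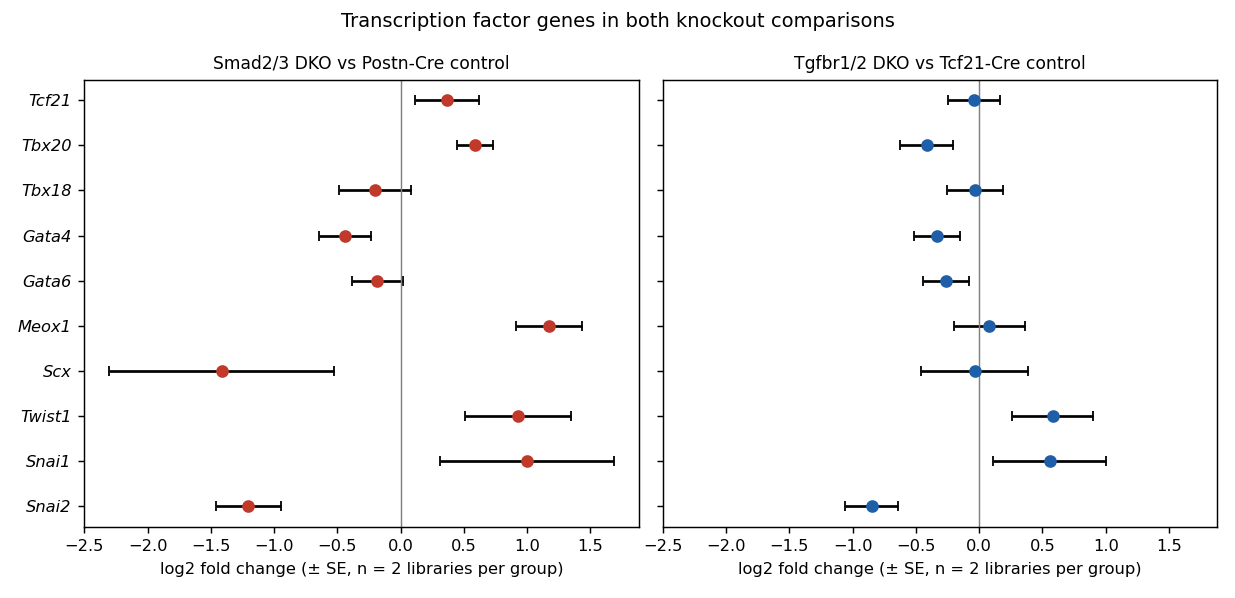
Log2 fold change of each gene with its standard error (bars, n = 2 libraries per group) in the Smad2/3 comparison on the left and the Tgfbr1/2 comparison on the right. Snai2 stands at -1.20 and -0.85, and none of the 20 values passed an adjusted p of 0.05.

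The second comparison asks the same of the receptors, in cells that had expressed Tcf21. None of the 10 genes passed the threshold here either, in a fit that called 3.96% of 16658 tested genes. Snai2 came closest and was again lower in the DKO libraries. It was the only one of the 10 with an unadjusted p under 0.05, against 20.0% of all tested genes, and the only one that DESeq2 called, among 6.48% of its genes. The libraries did not overlap for 5 of the 10 genes, 1 higher and 4 lower in Tgfbr1/2 DKO libraries, which is close to the 51.2% of all tested genes. The median log2 fold change was -0.04 over the 10 genes and -0.01 over all tested genes.

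Snai2 had 23.3 and 21.4 CPM in Tgfbr1/2 DKO libraries and 49.3 and 36.2 CPM in Tcf21-Cre controls. The groups did not overlap, and the log2 fold change was -0.85 ± 0.21 (adjusted p = 0.0506). Snai1 had 35.8 and 12.6 CPM in Tgfbr1/2 DKO libraries, on either side of the 15.004 and 18.9 CPM in Tcf21-Cre controls (0.56 ± 0.45, adjusted p = 0.556). Without Tgfbr1/2 DKO HK2 its log2 fold change was -0.28 instead. Twist1 was at 11.3 and 12.3 CPM in Tgfbr1/2 DKO libraries, above the 6.30 and 10.3 CPM of controls, without passing the test (0.58 ± 0.32, adjusted p = 0.351).

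Tcf21, the gene that carries the Cre in these mice, was at 120 and 129 CPM in Tgfbr1/2 DKO libraries, between the 163 and 111 CPM of the Tcf21-Cre controls. Its log2 fold change was -0.04 ± 0.21 (adjusted p = 0.939), and 2 standard errors either side run from -0.45 to 0.37. The counts do not show how many came from the allele with the Cre insertion. Tbx18 overlapped as well, at 33.5 and 22.2 CPM in Tgfbr1/2 DKO libraries and 32.2 and 27.8 CPM in controls (-0.03 ± 0.22, adjusted p = 0.952).

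The cardiac factors were all lower in Tgfbr1/2 DKO libraries without overlap, and none passed the test. Tbx20 had 598 and 447 CPM in Tgfbr1/2 DKO libraries and 784 and 685 CPM in controls (-0.42 ± 0.21, adjusted p = 0.303). Gata4 had 118 and 89.4 CPM in Tgfbr1/2 DKO libraries and 140 and 135 CPM in controls (-0.34 ± 0.18, adjusted p = 0.340). Gata6 had 59.3 and 62.1 CPM in Tgfbr1/2 DKO libraries and 80.1 and 74.4 CPM in controls (-0.26 ± 0.18, adjusted p = 0.451). Meox1 at 439 and 369 CPM in Tgfbr1/2 DKO libraries lay inside the range of the controls, which had 294 and 504.2 CPM (0.08 ± 0.28, adjusted p = 0.908). Scx at 6.20 and 6.15 CPM in Tgfbr1/2 DKO libraries lay inside the control range of 3.97 and 9.24 CPM too (-0.04 ± 0.42, adjusted p = 0.973).

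The difference between the effects, Smad2/3 minus Tgfbr1/2, was tested as an interaction over all 8 libraries. None of the 10 genes passed, in a fit that called 1.83% of 17770 genes. At an unadjusted p under 0.05 there were 2 of the 10, Tbx20 and Meox1, against 17.4% of all genes, and DESeq2 called Tbx20 alone, among 7.13% of its genes. Tbx20 was higher in Smad2/3 DKO than in Postn-Cre control libraries and lower in Tgfbr1/2 DKO than in Tcf21-Cre control libraries, each without overlap, and its effects differed by 0.99 ± 0.25 (adjusted p = 0.0757). For Meox1 the difference was 1.08 ± 0.45 (adjusted p = 0.244). For Snai2 it was -0.37 ± 0.31 (adjusted p = 0.594), and 2 standard errors either side run from -0.98 to 0.25, a span that also holds effects of unequal size. The other 7 genes had adjusted p of 0.510 to 0.930.

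Since Snai2 was lower in both comparisons, the mean of both effects was added after its values had been seen, and it is not independent of them. This contrast called 1.04% of all genes, and of the 10 genes it called Snai2, whose mean effect was -1.02 ± 0.16 on the log2 scale (adjusted p = 0.0128). Snai2 was lower in 4 of 4 DKO libraries than in either control of their own run. Libraries without overlap, in either direction, were found for 44.4% of all tested genes in the Smad2/3 and 51.2% in the Tgfbr1/2 comparison. The share of genes without overlap in both was not counted. The call was lost without Smad2/3 DKO HK15 (adjusted p = 0.0590), Tgfbr1/2 DKO HK2 (0.0585) or Tgfbr1/2 DKO HK4 (0.0711). The authors' deposited log2 fold changes of Snai2 were -1.15 in the Smad2/3 and -0.92 in the Tgfbr1/2 comparison. They come from the same libraries and are not independent of the values here.

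**Figure D3:**
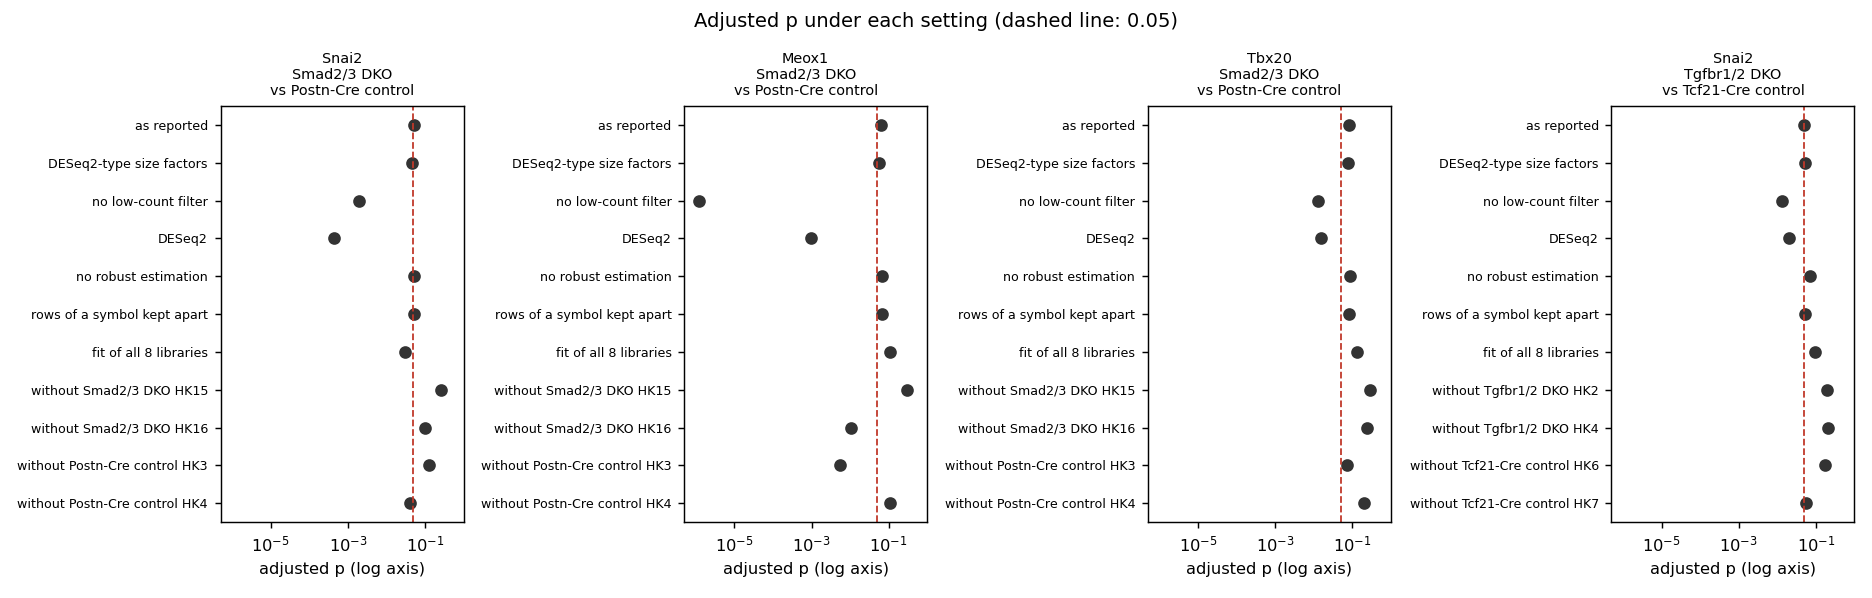
Adjusted p (log axis) of Snai2, Meox1 and Tbx20 in the Smad2/3 comparison and of Snai2 in the Tgfbr1/2 comparison, as reported and under each other setting or with 1 library left out; the dashed line is 0.05. The values for Snai2 in the Smad2/3 comparison range from 0.000433 to 0.253, on both sides of the line.

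Between the control groups 3 of the 10 genes passed, a share close to that of all genes. They were Tcf21, Meox1 and Snai1, all lower in Postn-Cre than in Tcf21-Cre controls. The fit called 34.9% of all genes in either direction and 18.9% as lower. Run and driver cannot be told apart in this contrast. The median of all tested genes was itself -0.12 on the log2 scale, and it was -0.03 with size factors of the DESeq2 type. All 3 calls held in every alternative run and without any 1 of the 8 libraries.

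Tcf21 was at 26.2 and 25.6 CPM in Postn-Cre controls, against 163 and 111 CPM in Tcf21-Cre controls (-2.10 ± 0.21, adjusted p = 9.42e-05), a level 4.30-fold lower. Its 37.7 and 32.0 CPM in Smad2/3 DKO libraries also lay below all 4 libraries of the Tcf21 driver. Postn, the other driver gene, was lower in Postn-Cre controls as well, at 208 and 186 CPM, against 1615 and 3076 CPM in Tcf21-Cre controls (-3.30 ± 0.32, adjusted p = 9.09e-05). Meox1 was 4.41-fold lower, at 92.0 and 56.9 CPM in Postn-Cre controls, against 294 and 504.2 CPM in Tcf21-Cre controls (-2.14 ± 0.33, adjusted p = 0.000700). Snai1 was 8.51-fold lower, at 1.15 and 2.13 CPM in Postn-Cre controls, against 15.004 and 18.9 CPM in Tcf21-Cre controls (-3.09 ± 0.51, adjusted p = 0.00104). Its relative Snai2 did not pass, at 45.7 and 40.1 CPM in Postn-Cre controls and 49.3 and 36.2 CPM in Tcf21-Cre controls (0.30 ± 0.22, adjusted p = 0.305). The other 6 genes had log2 fold changes between -0.81 and 0.13, and none passed the test. Fold changes come from the fit, which scales libraries by TMM, while CPM are scaled to library totals. Ratios of the printed CPM therefore differ from the fold changes in this contrast.

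The GC content of the transcripts moved with this contrast. Over the 17525 tested genes with a GENCODE transcript, which share the same 8 libraries, Spearman's rho between the log2 fold change and the GC content of the longest transcript was -0.44. It was 0.015 in the Smad2/3 and 0.169 in the Tgfbr1/2 comparison. Snai1, with a GC content of 59.8%, stood beside 1379 genes within 2 percentage points, whose median was -1.34, and 11.3% of them were lower than it. Tcf21 at 49.9% GC stood beside a median of -0.08 (3842 genes, 7.5% of them lower), and Meox1 at 52.4% GC beside -0.41 (3699 genes, 10.4% lower). Gata6 at 55.3% GC and Gata4 at 57.4% GC, whose own log2 fold changes were -0.02 and -0.38, lay above the medians of -0.88 and -1.16 of genes like them. The part of GC content in these differences was not tested further.

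**Figure D4:**
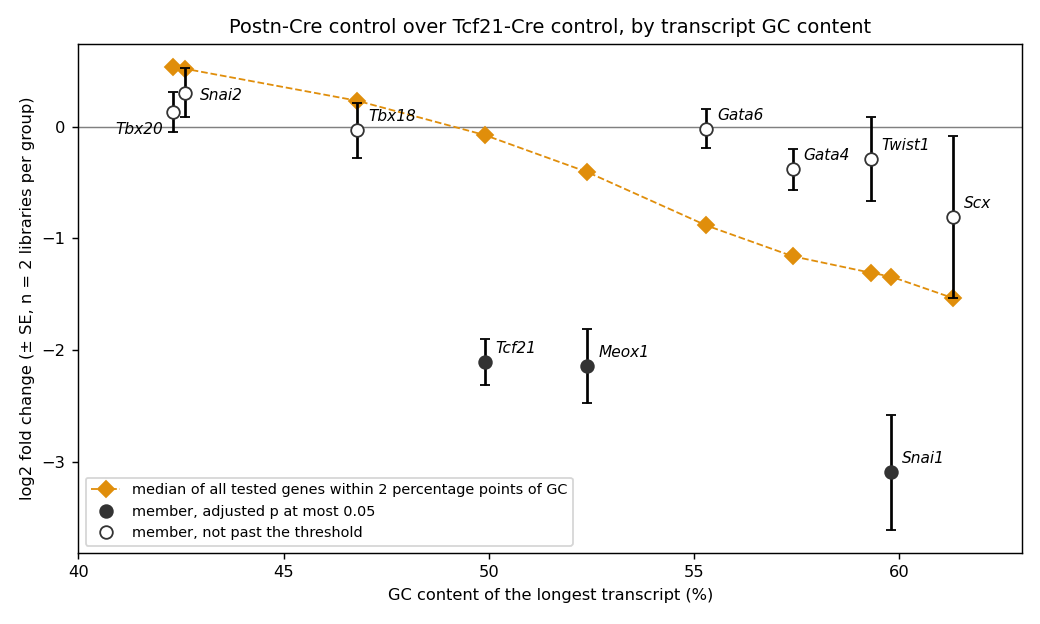
Log2 fold change (± SE, n = 2 libraries per group) of the 10 genes between Postn-Cre and Tcf21-Cre controls against the GC content of their longest transcript, with the median of all tested genes of like GC as diamonds. The diamonds fall with GC content to -1.53 at the GC content of Scx, and the called genes Tcf21, Meox1 and Snai1 lie below them.

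Tcf21 and Snai1 are among the 5 of 10 genes with an entry in the RefSeq promoter table (GRCm38.p6), and their 250 bases before the start are shown because both genes were lower in Postn-Cre controls. The Tcf21 window is chr10:22820144-22820393 on the minus strand and the Snai1 window chr2:167537945-167538194 on the plus strand, each written 5′ to 3′ along its gene. Distances count from the RefSeq start. For Tcf21 that start lies inside the GENCODE gene given above, so the stretch from 22820144 to 22820174 belongs to both window and gene. Capitals mark matches on either strand to CANNTG, the E-box that bHLH and Snail factors bind, and to CAGAC, the Smad-binding element.
Tcf21: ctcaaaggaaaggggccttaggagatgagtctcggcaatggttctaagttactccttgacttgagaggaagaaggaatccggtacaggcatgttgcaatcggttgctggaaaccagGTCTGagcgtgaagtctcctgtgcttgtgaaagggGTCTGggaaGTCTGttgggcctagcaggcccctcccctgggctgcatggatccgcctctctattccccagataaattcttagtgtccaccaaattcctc
Snai1: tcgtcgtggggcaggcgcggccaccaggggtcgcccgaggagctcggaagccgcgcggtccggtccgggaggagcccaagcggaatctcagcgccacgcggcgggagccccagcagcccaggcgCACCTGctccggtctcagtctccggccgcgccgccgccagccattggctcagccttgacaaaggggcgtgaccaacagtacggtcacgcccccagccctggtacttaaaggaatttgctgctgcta
The Tcf21 window held 0 E-boxes and 3 Smad-binding elements, 134, 99 and 90 bases before the start. The Snai1 window held 1 E-box, 126 bases before the start, of the form CAGGTG on the other strand, and 0 Smad-binding elements. Of 32851 promoters of the same length, 66.2% held CANNTG, 17.2% CAGGTG, which is one form of CANNTG, and 42.2% CAGAC. These matches are descriptions of the windows and not evidence of binding.

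Genes with the most similar profiles were sought for the 3 members with the widest log2 range over the 8 libraries whose mean was not under 5 CPM (which leaves out Scx), by the root mean square difference of centred log2(CPM + 1) values. For Snai1 they were Josd2 (0.25), SNORA14 (0.26) and Cc2d1a (0.28), against a median of 1.28 over 9460 candidate genes. For Meox1 they were Id3 (0.19), Zfp36 (0.21) and Pik3r2 (0.22), against a median of 0.99. Id3, an inhibitor of bHLH factors, had 115 and 88.9 CPM in Smad2/3 DKO and 57.8 and 40.6 CPM in Postn-Cre control libraries, and 251 and 179 CPM in Tgfbr1/2 DKO and 140 and 309 CPM in Tcf21-Cre control libraries. For Tcf21 they were Cln6 (0.17), Fam176b (0.18) and Tfeb (0.18), against a median of 0.98. Each of these genes was lower in every library of the Postn driver than in any library of the Tcf21 driver. That pattern follows from the choice, since the 3 members were those called between the controls and genes were picked for like profiles. Run and driver cannot be told apart in it, and the contrast of controls called 34.9% of all genes.

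Other transcription factors and TGF-beta feedback genes were counted in the knockout fits. These called 1.29% of all tested genes in the Smad2/3 and 3.96% in the Tgfbr1/2 comparison. Of the other EMT factors, 9 of 10 were tested and 0 passed edgeR's test in either comparison, where 2 and 1 had an unadjusted p under 0.05 in the Smad2/3 and in the Tgfbr1/2 fit. The smallest p were those of Zeb2, a zinc finger repressor, at -0.57 ± 0.16 in the Smad2/3 comparison (adjusted p = 0.129) and of Sox4 at -0.69 ± 0.26 in the Tgfbr1/2 comparison (adjusted p = 0.176). Of 16 tested cardiac and epicardial lineage factors, 0 passed in either, with Meox2, the relative of Meox1, at -0.94 ± 0.29 in the Smad2/3 comparison (adjusted p = 0.154) and Mef2c at -0.52 ± 0.19 in the Tgfbr1/2 comparison (adjusted p = 0.170). Of the 7 bHLH partners and Id inhibitors, 0 passed in either, with Id3 at 0.99 ± 0.23 (adjusted p = 0.0774) in the Smad2/3 and Tcf3, a partner of Tcf21 and Twist1, at 0.77 ± 0.22 (adjusted p = 0.0867) in the Tgfbr1/2 comparison. Of 20 regulators of fibroblast activation, 0 passed in the Smad2/3 comparison, where Mkl2 was at -0.83 ± 0.19 (adjusted p = 0.0667). In the Tgfbr1/2 comparison 1 rose, Srf, a factor of contractile genes, with 80.8 and 75.0 CPM in Tgfbr1/2 DKO and 41.3 and 39.9 CPM in control libraries (1.02 ± 0.18, adjusted p = 0.0146, and 0.0661 without Tgfbr1/2 DKO HK4). Of 10 TGF-beta feedback genes, 0 passed in either, with Smad7 at 1.05 ± 0.25 (adjusted p = 0.0803) in the Smad2/3 comparison. Unadjusted p under 0.05 numbered 2, 1, 8 and 4 in the last 4 lists in the Smad2/3 comparison and 2, 3, 1 and 4 in the Tgfbr1/2 comparison. Over all tested genes the share with such an edgeR p was 13.6% in the Smad2/3 and 20.0% in the Tgfbr1/2 comparison. DESeq2 called Zeb2, Meox2, Id3, Junb, Mkl2, Skil and Smad7 of these 5 lists in the Smad2/3 comparison, among 4.83% of its genes. Its calls in the Tgfbr1/2 comparison included Srf, among 6.48% of its genes.

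Genes that read out EMT and the tendon programme were counted in the same fits, which called 1.29% of all genes in the Smad2/3 and 3.96% in the Tgfbr1/2 comparison. Of 12 tested EMT readout genes, 2 fell in Smad2/3 DKO libraries and 0 rose. They were Fn1 (fibronectin), with 1435 and 1291 CPM in Smad2/3 DKO and 2716 and 2851 CPM in control libraries (-1.09 ± 0.14, adjusted p = 0.00370), and the mesenchymal cadherin Cdh11 (-1.15 ± 0.18, adjusted p = 0.00910). In the fit of all 8 libraries neither call held, with adjusted p of 0.165 for Fn1 and 0.0507 for Cdh11. In Tgfbr1/2 DKO libraries 3 of the 12 rose and 1 fell. S100a4 rose by 1.59 ± 0.22 (adjusted p = 0.00613), the integrin Itga5 by 1.55 ± 0.24 (adjusted p = 0.00877) and smooth muscle actin Acta2 by 1.09 ± 0.19 (adjusted p = 0.0140). The desmosomal gene Dsp fell by 1.90 ± 0.29 (adjusted p = 0.00765). The Acta2 call was lost without Tgfbr1/2 DKO HK4 (adjusted p = 0.0827) or control HK7 (0.0566), and the Itga5 call without control HK7 (0.0577). In the fit of all 8 libraries the Acta2 (0.112) and Dsp (0.0538) calls were lost.

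Of 16 tendon and Scx target genes, 7 fell and 1 rose in Smad2/3 DKO libraries. Those that fell were the collagen genes Col3a1, Col1a2, Col1a1, Col5a1 and Col5a2 and the matricellular genes Tnc and Thbs4, by 0.86 to 2.15 on the log2 scale. Col3a1, Col1a2 and Col1a1 are also the fibroblast markers called as lower above, so these calls are not separate results. Tnmd and Mkx, also on the list, were tested and did not pass. The gene that rose was Egr1, an early growth response factor, with 1357 and 1437 CPM in Smad2/3 DKO and 868 and 770 CPM in control libraries (0.71 ± 0.14, adjusted p = 0.0385). The Egr1 call was lost without Smad2/3 DKO HK15 (adjusted p = 0.138), Smad2/3 DKO HK16 (0.153) or control HK4 (0.0845), and the Col5a2 call without Smad2/3 DKO HK15 (0.131). In the fit of all 8 libraries the Egr1 (0.202), Col5a2 (0.0855) and Thbs4 (0.304) calls were lost. In Tgfbr1/2 DKO libraries 1 of the 16 rose, Tnc, to 1164 and 1310 CPM, against 183 and 267 CPM in Tcf21-Cre controls (2.54 ± 0.27, adjusted p = 0.00125). Medians of both lists lay below that of all genes in the Smad2/3 comparison, at -0.44 for the EMT readout genes and -0.40 for the tendon and Scx target genes, against 0.01. In the Tgfbr1/2 comparison they were -0.10 and -0.20, against -0.01. The EMT readout list holds epithelial as well as mesenchymal genes, so its median gives no direction of EMT.

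Markers of other cell types differed between the same groups, in edgeR fits that called 1.29% of all tested genes in the Smad2/3 and 3.96% in the Tgfbr1/2 comparison. In bulk RNA, fewer cells of a type and less RNA per cell cannot be told apart. The 10 epicardial and mesothelial markers summed to 396 and 423 CPM in Tgfbr1/2 DKO libraries, against 18.6 to 51.8 CPM in Tcf21-Cre controls. Nearly all of it was Aldh1a2, a retinoic acid synthesis gene, at 387 and 420 CPM in Tgfbr1/2 DKO libraries and 49.3 and 16.5 CPM in controls (3.73 ± 0.53, adjusted p = 0.0296). Aldh1a2 and Lrrn4 were the 2 of 5 tested markers called as higher. Lrrn4 had no counts in the controls, so it passed the low-count filter through Tgfbr1/2 DKO libraries alone. It could only be called as higher and adds no separate evidence of a rise. Wt1, the defining epicardial factor, was at 0.982 and 0.668 CPM in Tgfbr1/2 DKO libraries and at 1.61 and 1.54 CPM in controls, and Lrrn4, Krt8 and Muc16 were at 0 in the controls. In the Smad2/3 comparison 0 of 3 tested markers passed edgeR's test, 2 had an unadjusted p under 0.05, and DESeq2 called 1, Aldh1a2. The sum was 18.3 to 18.4 CPM in Smad2/3 DKO libraries, with Upk1b, Krt8 and Muc16 at 0, against 36.9 to 48.0 CPM in Postn-Cre controls, with Upk1b, Krt19, Krt8 and Muc16 at 0.

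The 10 macrophage markers found summed to 198 to 217 CPM in Tgfbr1/2 DKO libraries, against 54.7 to 83.6 CPM in Tcf21-Cre controls. They summed to 19.6 to 24.2 CPM in Smad2/3 DKO libraries, with Emr1, Ptprc and C1qa at 0, against 29.7 to 32.3 CPM in Postn-Cre controls, with C1qa at 0. Lyz2 led them at 82.5 and 90.6 CPM in Tgfbr1/2 DKO and 9.90 and 26.6 CPM in Tcf21-Cre control libraries, and Cd74 stood at 43.7 and 57.1 CPM in Tgfbr1/2 DKO and 12.7 and 22.2 CPM in Tcf21-Cre control libraries. In that comparison 3 of 10 tested markers rose (Cd74, Csf1r and Emr1), while 3.96% of all tested genes were called. An unadjusted edgeR p under 0.05 was found for 7 of the 10, against 20.0% of all tested genes. DESeq2 called 6 (C1qa, C1qc, Cd74, Csf1r, Emr1 and Lyz2), among 6.48% of its genes.

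The 12 endothelial markers summed to 163 to 264 CPM in Smad2/3 DKO libraries, against 270 to 544 CPM in controls, and to 542 to 565 CPM in Tgfbr1/2 DKO libraries, against 424 to 468 CPM in controls. The most abundant were Tek and Eng. Tek was at 76.1 and 71.4 CPM in Smad2/3 DKO and 124 and 77.7 CPM in Postn-Cre control libraries. Against the sum, it was lower in Tgfbr1/2 DKO libraries, at 88.05 and 81.8 CPM, with 163 and 124 CPM in Tcf21-Cre controls. Eng was at 50.8 and 36.4 CPM in Smad2/3 DKO and 84.8 and 72.9 CPM in Postn-Cre control libraries (-0.91 ± 0.23, adjusted p = 0.0921). It rose by 0.78 ± 0.18 in Tgfbr1/2 DKO libraries (adjusted p = 0.0423), the 1 of 12 tested that passed. Its levels there were 310.5 and 279 CPM, against 190 and 172 CPM in controls. The median log2 fold change of the 12 was -1.24 in the Smad2/3 and 0.58 in the Tgfbr1/2 comparison. In each, 6 had an unadjusted edgeR p under 0.05, against 13.6% and 20.0% of all tested genes. DESeq2 called Eng in the Smad2/3 comparison, among 4.83% of its genes, and Eng, Tek and Vwf in the Tgfbr1/2 comparison, among 6.48%. The 14 pericyte and smooth muscle markers, led by Rgs5 and Pdgfrb, overlapped between the groups of each comparison, at 858 to 1137 CPM in Smad2/3 DKO and 930 to 1660 CPM in Postn-Cre control libraries, and at 1234 to 1290 CPM in Tgfbr1/2 DKO and 837 to 1251 CPM in Tcf21-Cre control libraries. The 12 cardiomyocyte markers, led by Atp2a2 and Ttn, summed to 711 to 764 CPM in Smad2/3 DKO and 672 to 722 CPM in Postn-Cre control libraries, and to 588 to 681 CPM in Tgfbr1/2 DKO and 576 to 587 CPM in Tcf21-Cre control libraries. Most of each sum was Atp2a2, at 634 and 582 CPM in Smad2/3 DKO and 451 and 534 CPM in Postn-Cre control libraries. The list as a whole stood the other way in the Smad2/3 comparison, with a median log2 fold change of -1.21 over 11 tested markers. There 5 had an unadjusted edgeR p under 0.05, and DESeq2 called Ttn. In the Tgfbr1/2 comparison the median was -0.09. The 7 Schwann cell markers, led by Cdh19 and Ngfr, summed to 44.1 to 53.5 CPM in Smad2/3 DKO and 35.6 to 37.2 CPM in Postn-Cre control libraries, and to 18.0 to 23.9 CPM in Tgfbr1/2 DKO and 24.4 to 47.9 CPM in Tcf21-Cre control libraries. Of the last 3 lists, Kcnj8, a potassium channel gene of pericytes, fell in Smad2/3 DKO libraries (-3.17 ± 0.54, adjusted p = 0.0177), and in Tgfbr1/2 DKO libraries Acta2 rose. The part of these cell types in the results for Snai2, Meox1 and Tbx20 was not tested.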

How the data were processed

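The files hold RNA-seq values of 8 libraries. Per the labels' protocols, RNA was amplified by the NuGEN Ovation v2 system, tagmented with Nextera XT and read on a HiSeq2500, and no step that marks strand is described. The authors deposited expected counts for 38087 Ensembl genes in each of 2 tables, called raw in the file headers. Only 12.5% of the values above 0 were exactly whole (tolerance 0). The build is mm10 per the submitters' processing notes; aligner and counter are not given there. The authors' deposited tables also hold log2 values per library and their difference as a log2 fold change, an absolute fold change (a linear ratio) and a signed fold change, per the file headers; the signed value, written by the authors as negative for lower genes, is treated as a score here.

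Expected counts were rounded and summed per gene symbol (278 symbols had several entries). Each knockout comparison had a fit of its own 4 libraries in edgeR 4.0.16 under R 4.3.3, with TMM scaling, the filterByExpr minimum and its quasi-likelihood F test (robust, two-sided), Benjamini-Hochberg adjustment over all tested genes, threshold 0.05. All adjusted p are from edgeR unless DESeq2 1.42.0 is named. The difference of effects, their mean and the contrast of controls came from 1 fit of the 8 libraries with 4 group means. The SE came from the F statistic. The fits were also run on counts simulated from the same kind of model, with the spread taken from these data. Such a run cannot show how well the p hold in these libraries, and its outcome is not reported here. Positions, exonic lengths and transcripts are from GENCODE vM21, which held 95.3% of the identifiers.

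The 10 genes and all lists were chosen with earlier results of these data known. Named genes were the 10 members, the floxed and driver genes, from each list every gene past the threshold or else the one with the smallest p, from each marker list the 2 most abundant genes and any at 0, and the 3 nearest profiles of 3 members. The mean of effects, the GC description and the alternatives for list genes were chosen after values were seen. HK numbers name libraries and pair nothing. Alternatives were DESeq2-type size factors, dropping the low-count filter, DESeq2, no robust estimation, unsummed entries, the 8-library fit and leaving out each library in turn, where a lone library is assumed to vary like the rest. Floors of 3 counts cover counting error alone, as amplified reads are not separate molecules. Results for some genes of the lists are not reported here.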

Additional observations from a re-analysis of the deposited data

Results flagged for a closer look

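Tbx20 was marked because the libraries of the comparisons moved opposite ways without overlap. It was at 1032 and 1018 CPM in Smad2/3 DKO libraries, against 693 and 616 CPM in Postn-Cre controls, and at 598 and 447 CPM in Tgfbr1/2 DKO libraries, against 784 and 685 CPM in Tcf21-Cre controls. The test of the difference itself gave 0.99 ± 0.25 on the log2 scale and did not pass in edgeR's interaction test (adjusted p = 0.0757); over the alternatives its adjusted p ranged from 0.0115 to 0.228.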

How the results depend on the processing

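Over 590 values of the 10 genes in 5 contrasts under the alternatives, 544 kept their direction and their side of the threshold, 17 passed it in addition, 3 no longer passed it and 26 changed sign. In the Smad2/3 comparison the number of the 10 genes called was 0 as reported, 1 with size factors of the DESeq2 type (Snai2), 1 in the fit of all 8 libraries (Snai2), 3 without a low-count filter, 3 in DESeq2 (Tbx20, Meox1 and Snai2 in both), and 0 to 1 with a library left out. In the Tgfbr1/2 comparison it was 0 as reported and 1, Snai2, without a low-count filter and in DESeq2. For the difference of effects it was 0, 2 without a filter (Tbx20 and Meox1) and 1 in DESeq2 (Tbx20). For the mean of the effects it was 1, 2 without a filter (Meox1 and Snai2) and 0 to 1 with a library left out. Between the controls it was 3 throughout, the same genes. The cause of these changes was not tested. The number of all genes called in the Smad2/3 comparison was 204, 819 without a filter and 771 in DESeq2; in the Tgfbr1/2 comparison it was 659, 1233 and 1104.

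The values that changed sign were near 0 or noisy. Between the controls, Tbx18 was at 0.0509 and Gata6 at 0.0654 with size factors of the DESeq2 type, and at 0.0462 and 0.0610 in DESeq2. With a library left out, they ranged there from -0.10 to 0.0454 (Tbx18), -0.13 to 0.0517 (Gata6), -0.0034 to 0.22 (Tbx20) and -0.62 to 0.16 (Twist1). In the Tgfbr1/2 comparison the ranges were -0.23 to 0.20 (Tcf21), -0.27 to 0.18 (Tbx18), -0.29 to 0.60 (Meox1), -0.55 to 0.78 (Scx) and -0.28 to 1.09 (Snai1). For the difference of effects they were -0.41 to 0.039 (Tbx18), -0.25 to 0.024 (Gata4), -0.060 to 0.17 (Gata6), -0.12 to 0.66 (Twist1) and -0.10 to 1.25 (Snai1), and for the mean -0.22 to 0.0021 (Tbx18). Of 354 values of the other named genes, computed after the data were seen, 17 no longer passed, 13 passed in addition and 0 changed sign. In the fit of all 8 libraries, Fn1 (adjusted p = 0.165), Cdh11 (0.0507), Thbs4 (0.304), Col5a2 (0.0855), Egr1 (0.202), Acta2 (0.112) and Dsp (0.0538) no longer passed in edgeR. No paired analysis was possible because the HK numbers name libraries and the groups compared share none. Depth limits Scx and Snai1, which had 10 to 124 and 30 to 105 counts in the Postn-Cre-driven libraries.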

Other observations

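Of the other EMT factors, 4 were higher and 3 lower in Postn-Cre than in Tcf21-Cre controls, out of 9 tested, in a contrast where 34.9% of all genes passed. Zeb1 and Zeb2, zinc finger repressors of epithelial genes, were higher: Zeb1 had 661 and 741 CPM in Postn-Cre controls, against 400 and 362 CPM in Tcf21-Cre controls (1.17 ± 0.17, edgeR adjusted p = 0.000523), and Zeb2 had 1146 and 1485 CPM, against 689 and 458 CPM (1.49 ± 0.22, adjusted p = 0.000527). Foxc1 and Foxc2 were higher as well, by 1.26 ± 0.20 (adjusted p = 0.000907) and 2.60 ± 0.33 (adjusted p = 0.000250). Sox4, Sox9 and Prrx2 were lower, as Snai1 was, with Sox4 at 5.12 and 5.61 CPM in Postn-Cre controls, against 20.3 and 22.9 CPM in Tcf21-Cre controls (-1.72 ± 0.32, adjusted p = 0.00189). The Prrx2 call was lost without Postn-Cre control HK4 (adjusted p = 0.0801) or Tcf21-Cre control HK7 (0.111). Run and driver cannot be told apart here, and GC content moved with the contrast.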
